A study of Mus musculus with 12 samples.

Results

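The 10 genes described here encode the nuclear subunits of respiratory complex III and its electron acceptor cytochrome c in the mouse heart. They were taken by symbol from the count table, Uqcrc1, Uqcrc2, Uqcrfs1, Uqcrh, Uqcrb, Uqcrq, Uqcr10, Uqcr11, Cyc1 and Cycs, which makes 10 of the 25171 loci listed, and each of them passed the filter on low counts in every comparison. RNA-seq was performed on 12 hearts, 3 in each of 4 groups, to compare mice that express NOTCH2NLC with 98 GGC repeats with their controls. All 12 mice belonged to a conditional line in which a stop sequence flanked by loxP sites precedes the repeat transgene at the Rosa26 site. EIIa-tg mice also carried EIIa-Cre, which is active in all tissues from the embryo on, and EIIa-ctl mice did not; both were taken at postnatal day 30. Myh6-tg and Myh6-ctl mice have the same genotype label, Myh6 transgenic, which in the study's methods stands for a cross with Myh6-creERT2, an inducible Cre with a promoter active in cardiomyocytes. From day 60 they received 3 injections, of tamoxifen in corn oil (75 mg per kg) in Myh6-tg and of corn oil alone in Myh6-ctl mice, and hearts were taken at day 90. EIIa-tg replicates 2 and 3 have other genotype names in their labels than replicate 1 and were grouped by title.

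Complex III sits in the inner mitochondrial membrane. It takes electrons from reduced ubiquinone, which collects them from complexes I and II and from several dehydrogenases, passes them to cytochrome c and moves protons across the membrane on the way. Uqcrfs1 encodes the Rieske iron-sulfur protein and Cyc1 the haem protein cytochrome c1, which together with the mitochondrially encoded cytochrome b carry the electrons. Uqcrc1 and Uqcrc2 encode the large core proteins on the matrix side, and Uqcrh, Uqcrb, Uqcrq, Uqcr10 and Uqcr11 encode small subunits without redox groups. Cytochrome c, encoded by Cycs, carries electrons on to complex IV and, once released into the cytosol, takes part in caspase activation. Heart muscle is among the tissues richest in these proteins.

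Between 38343106 and 50969834 reads per heart were counted, and the 10 genes had between 1005 (Uqcr11) and 60027 (Uqcrc1) counts in a heart, so that counting error was small against the differences between hearts. Genes of the mitochondrial genome took 28.5% to 38.3% of the counts in 9 hearts and 15.5% to 18.6% in Myh6-tg hearts. The Y-linked genes summed to 4224 to 7307 counts in the hearts numbered 1 and to 0 to 2 counts in those numbered 2 and 3, in all 4 groups alike. Esr1 encodes the oestrogen receptor, a piece of which is fused to Cre in creERT2. It had 1031 to 2331 CPM (counts scaled to library size, with TMM factors over all 12 hearts) in Myh6-ctl hearts, 1.00 to 2.52 CPM in Myh6-tg hearts and 0.408 to 1.23 CPM in the EIIa hearts, although both Myh6 groups have the same genotype label. Esr1 in the hearts labelled Myh6-tg was thus at the level of the EIIa hearts, which have no creERT2, and went against that label, so that these counts do not show the inducible Cre in them. Myh6-tg stands below for the hearts with this label. Comparisons of Myh6-tg with Myh6-ctl hearts contain the Esr1 difference together with tamoxifen, and their parts cannot be told apart. The same holds for the difference between the models. Sqstm1, which encodes p62, rose in both models (log2 change 1.52 ± 0.18 (SE), edgeR adjusted p = 0.0135 in EIIa-tg, and 1.54 ± 0.31, adjusted p = 0.0166 in Myh6-tg hearts). Summed over 8 markers, cardiomyocyte transcripts reached 8055 to 43320 CPM in each heart, while the atrial list reached 34.9 CPM at most and the adipocyte list 4.10 CPM. The skeletal muscle list, at 69.0 to 847 CPM, consisted almost wholly of Acta1, which heart muscle also expresses.

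The genes lie on 8 chromosomes of GRCm38. Uqcrfs1 (chr13:30540308-30545362, 2 exons) and Uqcrb (chr13:66900617-66905378) are both on chromosome 13 and Uqcrq (chr11:53427922-53430831) and Uqcr10 (chr11:4701973-4704342) both on chromosome 11. The others are Uqcrc1 (chr9:108936633-108949623), Uqcrc2 (chr7:120635176-120659524), Uqcrh (chr4:116066965-116075071), Uqcr11 (chr10:80402997-80406830), Cyc1 (chr15:76343523-76346260) and Cycs (chr6:50562563-50566538). Their principal transcripts differ widely in length. Uqcr10 (434 bases), Uqcr11 (445), Uqcrb (535) and Uqcrh (547) are short, whereas the other transcripts span 1363 (Uqcrfs1) to 3123 bases (Cycs).

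Promoters were available for 6 of the genes. They were searched on both strands for the letters GCANGCGC (NRF1), AAGGTCA (ERR), AAGATGG (YY1), CCGGAAG (ETS factors such as GABP) and TGACG (the CRE core), motifs of factors known for controlling mitochondrial genes. The letters for the first 3 were chosen after the sequences had been seen. The 250 bases before the RefSeq start in GRCm38.p6 are shown, 5′ to 3′ on the gene's strand, for Cycs (chr6:50566570-50566819, minus strand) and Uqcr11 (chr10:80406822-80407071, minus), whose levels in EIIa-tg hearts lay below all controls, and for Uqcrh (chr4:116075071-116075320, minus) and Uqcr10 (chr11:4704345-4704594, minus), whose levels overlapped. Capitals mark the motif matches.
Cycs: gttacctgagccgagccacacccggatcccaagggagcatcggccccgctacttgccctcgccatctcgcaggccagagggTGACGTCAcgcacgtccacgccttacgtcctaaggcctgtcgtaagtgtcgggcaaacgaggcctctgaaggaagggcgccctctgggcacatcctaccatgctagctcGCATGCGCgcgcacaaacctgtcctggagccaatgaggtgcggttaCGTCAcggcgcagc
Uqcr11: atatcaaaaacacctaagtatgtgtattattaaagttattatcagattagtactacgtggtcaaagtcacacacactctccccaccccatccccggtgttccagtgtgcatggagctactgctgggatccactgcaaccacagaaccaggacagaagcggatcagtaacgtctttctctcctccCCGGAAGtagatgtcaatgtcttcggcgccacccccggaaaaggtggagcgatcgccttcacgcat
Uqcrh: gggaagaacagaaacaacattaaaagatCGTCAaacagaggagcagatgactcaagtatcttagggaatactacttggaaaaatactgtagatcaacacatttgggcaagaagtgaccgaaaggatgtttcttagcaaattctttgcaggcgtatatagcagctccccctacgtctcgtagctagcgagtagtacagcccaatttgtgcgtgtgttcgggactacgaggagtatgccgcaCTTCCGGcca
Uqcr10: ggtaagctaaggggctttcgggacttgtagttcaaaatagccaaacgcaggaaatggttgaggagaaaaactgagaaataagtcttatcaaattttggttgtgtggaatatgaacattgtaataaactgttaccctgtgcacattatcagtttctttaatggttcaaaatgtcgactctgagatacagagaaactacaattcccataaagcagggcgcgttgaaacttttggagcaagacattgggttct
Of the 6 promoters, only that of Cycs held the NRF1 letters, at -60 to -53 from the start, against 7.86% of all 32851 promoters in the table. It also held the CRE core on both strands, in a palindrome from -169 to -162, and once more at -14 to -10. The ETS letters were found in Uqcr11 (-66 to -60) and Uqcrh (-10 to -4), against 6.91% of all promoters. The CRE core was found in 3 of the 6 (Uqcrh, Cycs and Uqcrfs1), against 17.8%, and the ERR and YY1 letters in 0 of them, against 4.08% and 4.49%. The Uqcrc1 and Uqcr10 windows held none of the 5 motifs, which says only that these letters are absent there.

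Levels of different genes were compared on the FPKM values of the authors, which take the transcript length into account. In EIIa-ctl hearts Uqcrc1 had the highest level of the 10 genes, 691 ± 37.9 FPKM (SD, n = 3), followed by Uqcrfs1 with 523 ± 23.6 FPKM. Uqcrc2 (435 ± 17.5 FPKM), Cyc1 (408 ± 16.1 FPKM) and Uqcrh (389 ± 41.5 FPKM) formed a middle group in which neighbours overlapped. Then came Uqcrb with 286 ± 28.9 FPKM and Cycs with 238 ± 22.1 FPKM, each apart from its neighbours. Uqcrq (159 ± 25.5 FPKM), Uqcr10 (149.9 ± 17.5 FPKM) and Uqcr11 (143 ± 19.6 FPKM) had the lowest levels and overlapped. The order in Myh6-ctl hearts was similar, from 531 ± 70.3 FPKM for Uqcrc1 to 118 ± 21.1 FPKM for Uqcr11, with Uqcrh ahead of Cyc1 and Uqcr10 ahead of Uqcrq within overlapping ranges. In both transgenic groups Uqcrh stood second, at 429 ± 38.8 FPKM in EIIa-tg and 258 ± 38.4 FPKM in Myh6-tg hearts, although its range overlapped that of Uqcrfs1 in each. Uqcrc1 stayed highest, at 549.7 ± 81.7 FPKM in EIIa-tg and 304 ± 51.6 FPKM in Myh6-tg hearts.

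In EIIa-tg hearts at day 30, 7 of the 10 genes were measured at 0.667 (Uqcrfs1) to 0.751 (Uqcr11) of the control level, and Uqcrh, Uqcrb and Uqcr10 at 0.966, 1.07 and 0.992 of it. Uqcrc1, Uqcrc2, Uqcrfs1, Uqcrq, Uqcr11, Cyc1 and Cycs were lower in all 3 EIIa-tg hearts than in all 3 controls, whereas 20.8% of all genes tested had this pattern. Uqcrfs1 fell past the threshold (edgeR's quasi-likelihood test, Benjamini-Hochberg adjusted p under 0.05 over 14908 genes), so that 1 of 10 was called lower, against 8.3% of all genes. The median log2 fold change of the 10 genes was -0.43, against 0.02 over all genes tested. The summed cardiomyocyte markers were also lower, at 18686 to 32303 CPM in EIIa-tg and 36632 to 43320 CPM in EIIa-ctl hearts. Taken singly, 7 of the 8 markers had a log2 fold change below 0 and 1 was called lower, against the same 8.3%. In whole heart RNA, fewer cardiomyocytes and less of a transcript per cardiomyocyte cannot be told apart.

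**Figure D1:**
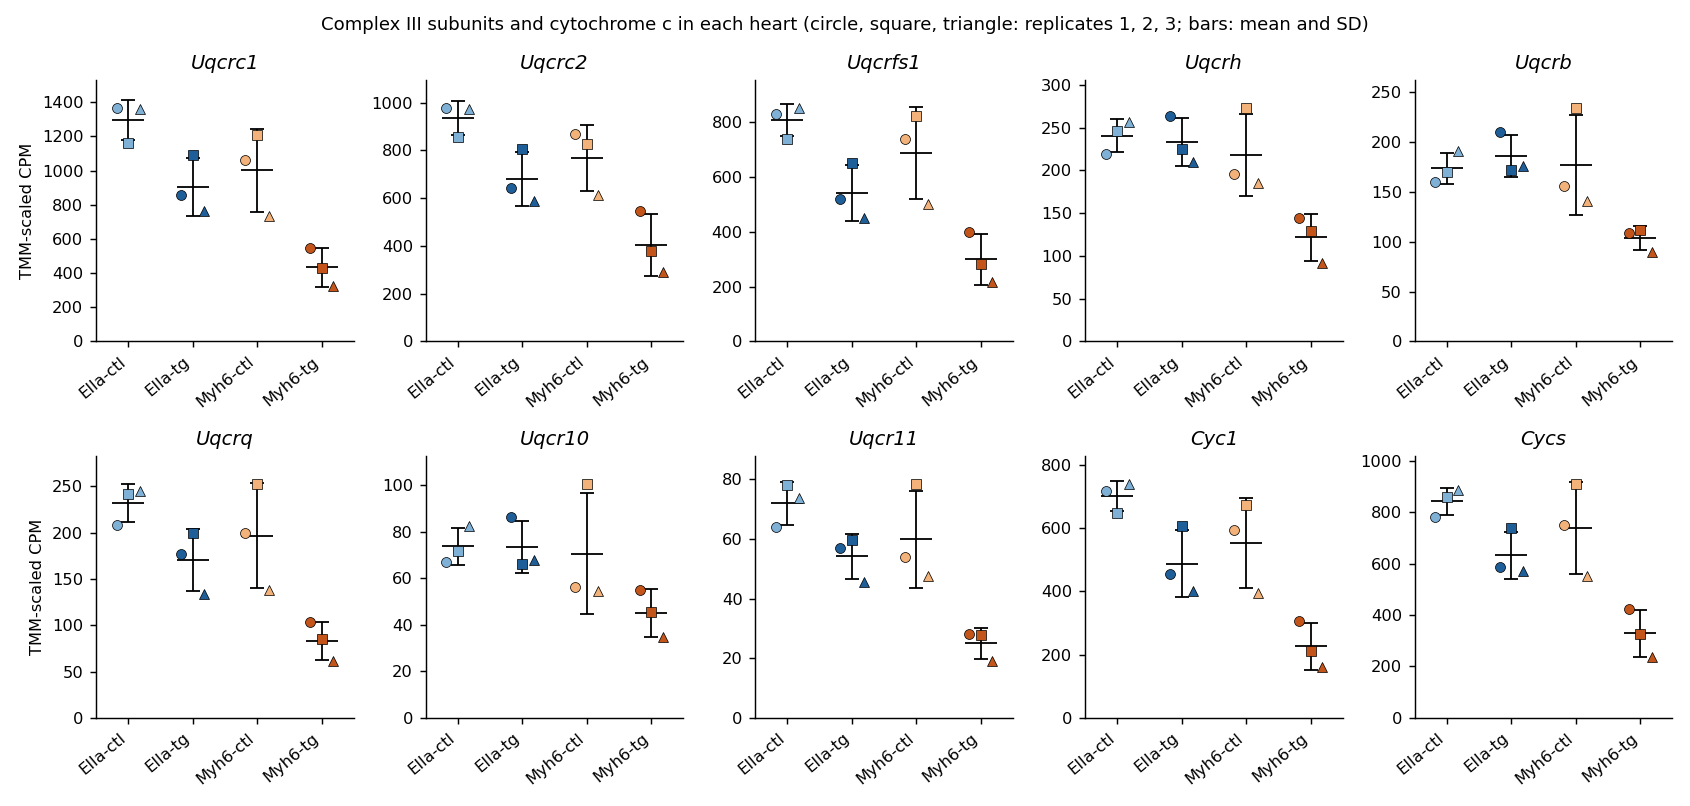
TMM-scaled CPM (vertical axis, from 0) of each gene in every heart of the 4 groups, with the mean and SD of each group as black bars. In Myh6-tg hearts Uqcrc1 lies between 324 and 548 CPM, below every other heart, and Uqcrh, Uqcrb and Uqcr10 in EIIa-tg hearts overlap their controls.

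Among the electron carriers, Uqcrfs1 had 832, 740.5 and 853 CPM in EIIa-ctl replicates 1 to 3 and 519.9, 651 and 449.6 CPM in EIIa-tg replicates 1 to 3. Its log2 fold change was -0.58 (SE 0.16, 95% interval -0.94 to -0.22, edgeR adjusted p = 0.0403), the only one of the 10 past the threshold. Cyc1 had 719, 649 and 739 CPM in EIIa-ctl and 456, 605 and 400.0 CPM in EIIa-tg hearts. Replicate 2 was the EIIa-tg heart nearest to the controls for both genes, and no heart crossed over. The log2 fold change of Cyc1 was -0.53 ± 0.17 (SE, adjusted p = 0.0602), just outside the threshold. Cycs had 782, 861 and 886 CPM in EIIa-ctl and 589, 739 and 574 CPM in EIIa-tg hearts, giving a log2 change of -0.41 (adjusted p = 0.0715).

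The core proteins gave similar values. Uqcrc1 had 1367, 1161 and 1360.3 CPM in EIIa-ctl and 857, 1094 and 761 CPM in EIIa-tg hearts (log2 fold change -0.52, adjusted p = 0.0615). Uqcrc2 had 855 to 979 CPM in EIIa-ctl and 589 to 807 CPM in EIIa-tg hearts (log2 fold change -0.46, adjusted p = 0.0659). In both genes replicate 2 was again the highest of the EIIa-tg hearts.

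The small subunits were divided. Uqcrq had 208 to 245 CPM in EIIa-ctl and 134 to 199 CPM in EIIa-tg hearts (log2 fold change -0.45, adjusted p = 0.0797), and Uqcr11 had 64.0 to 78.0 CPM and 45.6 to 59.7 CPM (log2 fold change -0.41, adjusted p = 0.0609). Uqcrh, whose product is called the hinge protein, had 219, 246 and 256 CPM in EIIa-ctl and 264, 226 and 209.8 CPM in EIIa-tg hearts. Uqcrb had 160.2, 169.9 and 191 CPM in EIIa-ctl and 210.2, 172 and 176 CPM in EIIa-tg hearts. Uqcr10 had 66.9, 71.8 and 82.3 CPM in EIIa-ctl and 86.1, 66.3 and 67.6 CPM in EIIa-tg hearts. In these 3 genes the groups overlapped, and EIIa-tg replicate 1 was the highest of the 6 hearts. Their log2 fold changes were -0.05 for Uqcrh (95% interval -0.32 to 0.22, edgeR adjusted p = 0.801), 0.09 for Uqcrb (-0.17 to 0.36, adjusted p = 0.598) and -0.01 for Uqcr10 (-0.31 to 0.28, adjusted p = 0.96). The value measured for Uqcrfs1 lay outside each of these intervals. Its own interval, -0.94 to -0.22, overlapped those of Uqcrh and Uqcr10, and differences between genes were not tested. Without replicate 1 of every group, Uqcrh was at -0.21 (95% interval -0.55 to 0.14) and Uqcr10 at -0.21 (-0.52 to 0.11). Uqcrb was at -0.06 (-0.39 to 0.28) and Uqcrfs1 at -0.53 in that fit. This Uqcrfs1 value lay within the interval of Uqcrh and outside those of Uqcr10 and Uqcrb. EIIa-tg replicate 1 was also the heart of this comparison in which short transcripts were highest. Their median deviation there was 0.27 on the log2 scale, against -0.02 to 0.15 in the other hearts. It was taken over 81 protein-coding genes with transcripts under 700 bases, kept for a high mean level. Uqcr11 is nearly as short as Uqcr10, and the part of transcript length in these values was not tested.

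The single call was lost or joined by others when any of the 6 hearts was left out. Without EIIa-tg replicate 2, 7 genes were called, and without each of the other hearts in turn 0 were. Scaling by library totals or fitting all 12 hearts together also gave 0 calls. The share of all genes called in these fits is not given here. These counts thus show only how the calls depend on hearts and settings. DESeq2, the tool named in the study's methods, called 7 of the 10, against 9.95% of all genes, and these were the genes with no overlap. With the study's thresholds (adjusted p under 0.01 and at least 1 on the log2 scale) edgeR called 0 of all genes tested and DESeq2 0 of the 10. By edgeR 7 of the 10 had an unadjusted p under 0.05, as did 5204 of the 14908 genes tested, in either direction.

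In Myh6-tg hearts at day 90 the 10 genes were measured between 0.408 (Cyc1) and 0.641 (Uqcr10) of the Myh6-ctl level. Uqcrc1, Uqcrfs1, Uqcrq, Uqcr11, Cyc1 and Cycs fell at an adjusted p under 0.05, so that 6 of 10 were called lower, against 9.38% of 15298 genes. In 9 of the 10, all but Uqcr10, each Myh6-tg heart had less than any of the 3 controls, as did 19.6% of all genes. The median log2 fold change of the 10 genes was -1.18, against 0.03 over all genes.

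**Figure D2:**
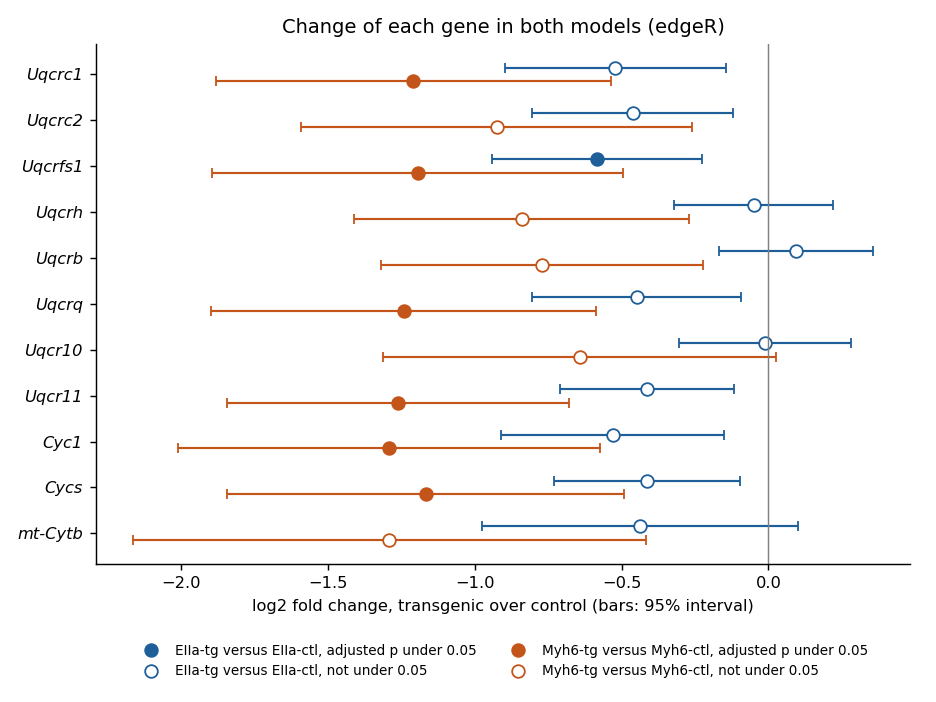
Log2 fold change (horizontal axis) of the 10 genes and mt-Cytb in EIIa-tg (blue) and Myh6-tg hearts (orange), with 95% intervals and filled points for an adjusted p under 0.05. Uqcrfs1 is filled in both models, and in EIIa-tg hearts Uqcrh, Uqcrb and Uqcr10 lie at -0.05, 0.09 and -0.01.

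Cyc1 had 595, 672 and 396 CPM in Myh6-ctl and 306, 213 and 159.9 CPM in Myh6-tg replicates 1 to 3. Its log2 fold change of -1.29 (SE 0.31, 95% interval -2.01 to -0.57, edgeR adjusted p = 0.0276) was the lowest of the 10. Uqcrfs1 had 739, 823 and 500.0 CPM in Myh6-ctl and 401, 283 and 217 CPM in Myh6-tg hearts (log2 change -1.20 ± 0.30, adjusted p = 0.0321). Cycs had 750.4, 910.4 and 554 CPM in Myh6-ctl and 422, 326 and 238 CPM in Myh6-tg hearts (log2 change -1.17 ± 0.29, adjusted p = 0.0312). For all of these carriers the groups were separate, with Myh6-ctl replicate 3 the control nearest to the transgenic hearts.

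Uqcrc1 had 1061, 1209 and 736 CPM in Myh6-ctl and 548, 428 and 324 CPM in Myh6-tg hearts, for a log2 change of -1.21 ± 0.29 (SE, adjusted p = 0.0276). Uqcrc2 had 869, 826 and 613 CPM in Myh6-ctl and 546, 379 and 289.8 CPM in Myh6-tg hearts, giving a log2 change of -0.93 ± 0.29 (SE, adjusted p = 0.0607). The core proteins thus lay on either side of the threshold, and their difference from each other was not tested.

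Among the small subunits, Uqcr11 had 53.8, 78.4 and 47.6 CPM in Myh6-ctl and 28.0, 27.9 and 19.0 CPM in Myh6-tg hearts, for a log2 change of -1.26 ± 0.25 (SE, adjusted p = 0.0157) with the lowest adjusted p of the 10 genes. Uqcrq had 138 to 252 CPM in Myh6-ctl and 61.8 to 103 CPM in Myh6-tg hearts (log2 fold change -1.24, adjusted p = 0.0233). These were again the small subunits with the larger measured change. Uqcrh had 196, 273 and 185 CPM in Myh6-ctl and 144, 129.5 and 91.4 CPM in Myh6-tg hearts (log2 fold change -0.84, adjusted p = 0.0516). Uqcrb had 156, 234 and 140.4 CPM and 109, 112 and 89.8 CPM (log2 fold change -0.77, adjusted p = 0.0589). Uqcr10 had 56.3, 100.4 and 54.5 CPM in Myh6-ctl and 55.1, 45.5 and 34.7 CPM in Myh6-tg hearts, giving a log2 change of -0.64 (95% interval -1.31 to 0.03, adjusted p = 0.161). Only Uqcr10 overlapped between the groups, by Myh6-tg replicate 1. In TMM-scaled CPM Myh6-ctl replicate 2 had the highest level of Uqcrh, Uqcrb and Uqcr10 among all 12 hearts. In FPKM EIIa-tg replicate 1 was above it for each of these (473 against 403, 386 against 353 and 195 against 187). The short transcripts of Myh6-ctl replicate 2 deviated by 0.59 on the log2 scale. The other Myh6-ctl hearts were at -0.10 and -0.07 and Myh6-tg hearts at -0.50 to -0.17. Over 86 protein-coding genes with transcripts under 700 bases, kept for a high mean level, the median log2 fold change in this comparison was -0.34. It was 0.11 over 4291 genes with longer transcripts kept in the same way. The part of transcript length was not tested.

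Myh6 hearts with the same replicate number deviated together, although the titles state no pairing. A fit with the replicate number as a block called 9 of the 10 genes, all but Uqcr10, against 11.2% of all genes. The log2 fold changes moved little under the block, for example to -0.96 ± 0.20 (SE) for Uqcrc2 (adjusted p = 0.0197), -0.85 for Uqcrh (adjusted p = 0.0293) and -0.74 for Uqcrb (adjusted p = 0.0351). All 10 genes were lower in the Myh6-tg heart of each of the 3 same-numbered pairs, as were 28.1% of all genes. For the 9 genes without overlap this followed from the separation of the groups, and only Uqcr10 could have differed. The smallest difference within a pair was that of Uqcr10 in pair 1, -0.03 on the log2 scale. The largest was that of Cyc1 in pair 2, -1.66. DESeq2 also called 9 of the 10, against 11.6%. The count at the study's thresholds differed by tool. With DESeq2, the same 6 genes as above (Uqcrc1, Uqcrfs1, Uqcrq, Uqcr11, Cyc1 and Cycs) passed them, against 6.99% of all genes, and with edgeR 0 of the 10 did, against 2.05%. The 6 calls rested on most of the hearts. Without Myh6-ctl replicate 1 or Myh6-tg replicate 3, 0 genes were called. Without Myh6-ctl replicate 2 or Myh6-tg replicate 2 only Uqcr11 was called. In contrast, 6 were called without Myh6-ctl replicate 3 and 8 without Myh6-tg replicate 1. The share of all genes called with a heart left out is not given here, so these counts show only the dependence on single hearts.

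The change in Myh6-tg hearts was then compared with that in EIIa-tg hearts by testing the difference between both changes over all 12 hearts. All 10 genes had the lower value in the Myh6 model, by -0.87 (Uqcrb) to -0.47 (Uqcrc2) on the log2 scale. None passed the threshold (0 of 10 by edgeR, against 2.27% of 15929 genes), and DESeq2 called 1, Uqcrb. By edgeR 5 had an unadjusted p under 0.05, as did 3092 of the 15929 genes, in either direction. The difference was -0.87 for Uqcrb (95% interval -1.45 to -0.29, edgeR adjusted p = 0.0979), -0.85 for Uqcr11 (-1.49 to -0.21, adjusted p = 0.132) and -0.79 for Uqcrh (-1.40 to -0.19, adjusted p = 0.138). Without Myh6-tg replicate 1, Uqcrh was called. Model, age, Cre line and treatment differ together here and cannot be told apart.

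The control groups were compared with each other for the level of these genes. These groups differ together in age, Cre line, oil injection and Esr1 level, and the parts of these cannot be told apart. In Myh6-ctl hearts the log2 fold change over EIIa-ctl was between -0.37 (Uqcrc1, 95% interval -0.84 to 0.10) and 0.03 (Uqcrb, -0.43 to 0.48), and the groups overlapped for each of the 10. None was called by edgeR (0 of 10, lower calls being 0.0133% of 14990 genes), and DESeq2 called 0. By edgeR 0 had an unadjusted p under 0.05, against 1700 of the 14990 genes, in either direction. The intervals leave room for a fall of Uqcrc1 to 0.56 of the EIIa-ctl level. These hearts are the same ones that serve as controls in the comparisons above. In TMM-scaled CPM Myh6-ctl replicate 3 had the lowest value of its group in all 10 genes and replicate 2 the highest in 9. In FPKM replicate 1 was lowest instead for Uqcrh, Uqcrb, Uqcr10 and Uqcr11. How far the genes shared the spread among these controls thus depends on the scaling.

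The share of each gene among the 10 transcripts was then followed. Each gene's FPKM was expressed as a percentage of the summed FPKM of the 10 genes in the same heart, a value that no scaling of the library changes but in which a rise of one gene forces a fall of others. Uqcr10 made up 4.03%, 4.47% and 4.62% in EIIa-ctl replicates 1 to 3 and 6.45%, 4.52% and 5.94% in EIIa-tg hearts. In the Myh6 model it made up 3.89%, 5.73% and 4.99% in controls and 6.37%, 6.58% and 6.69% in transgenic hearts, with no overlap. Uqcrb made up 7.82% to 8.68% in EIIa-ctl and 9.50% to 12.8% in EIIa-tg hearts, which did not overlap, whereas its ranges of 8.73% to 10.8% in Myh6-ctl and 10.2% to 14.0% in Myh6-tg hearts overlapped. Uqcrh, Uqcrb and Uqcr10 together accounted for 22.3% to 25.2% in EIIa-ctl, 26.2% to 34.9% in EIIa-tg, 23.4% to 28.9% in Myh6-ctl and 29.8% to 34.7% in Myh6-tg hearts. In both models the transgenic hearts lay above all their controls for this sum. The 3 genes were put together after their values had been seen, so the separation is a description, and 3 hearts against 3 could not reach an exact permutation p below 0.1.

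**Figure D3:**
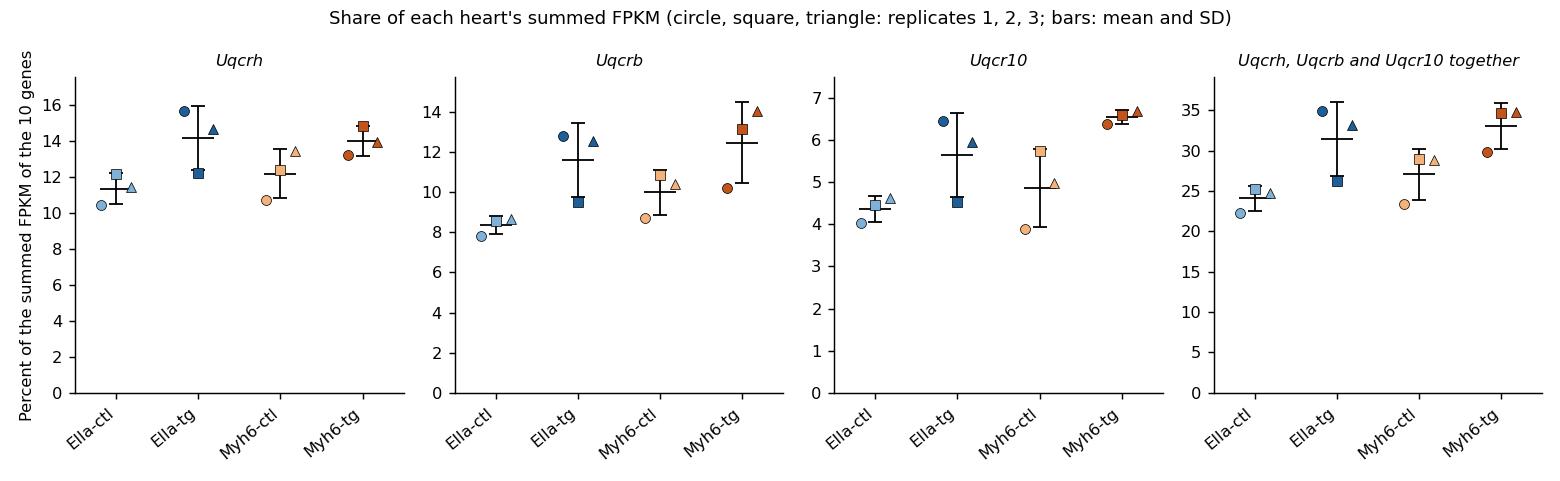
Percentage (vertical axis, from 0) that Uqcrh, Uqcrb, Uqcr10 and their sum contribute to the summed FPKM of the 10 genes in every heart, with the mean and SD of each group as black bars. The sum lies between 22.3% and 25.2% in EIIa-ctl and between 29.8% and 34.7% in Myh6-tg hearts.

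Shares of larger subunits were lower in part. Uqcrfs1 made up 14.7% to 15.9% of the sum in EIIa-ctl and 12.4% to 14.1% in EIIa-tg hearts, with no overlap, and Uqcrc1 17.7% to 19.3% in Myh6-ctl and 16.3% to 16.6% in Myh6-tg hearts. Uqcrc2 went the other way in the Myh6 model, with 10.8% to 13.7% in Myh6-ctl and 12.6% to 14.5% in Myh6-tg hearts, and these ranges overlapped.

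The remaining subunit, cytochrome b, is encoded by the mitochondrial genome. Its gene mt-Cytb had 41452, 36861 and 37906 CPM in EIIa-ctl and 28525, 31963 and 25548 CPM in EIIa-tg hearts, for a log2 change of -0.44 ± 0.24 (SE, edgeR adjusted p = 0.223) with no overlap. In Myh6-ctl hearts it had 41762, 46466 and 32255 CPM and in Myh6-tg hearts 19141, 17036 and 13047 CPM, for a log2 change of -1.29 ± 0.38 (SE, adjusted p = 0.0508, and 0.0165 with the replicate block). The measured changes were thus of the size seen for Cyc1 and Uqcrfs1, the nuclear partners of cytochrome b. DESeq2 called mt-Cytb lower in both models (DESeq2 adjusted p = 0.00301 in EIIa-tg and 5.47e-06 in Myh6-tg hearts). Its difference between the models was -0.86, with an adjusted p of 0.249 by edgeR and 0.0252 by DESeq2. Per length the nuclear genes were far below mt-Cytb, which had 29845 ± 938 FPKM in EIIa-ctl hearts.

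Cytochrome c also has a testis form, Cyct, which had 4 counts in EIIa-ctl replicate 3 and 0 in the other 11 hearts, where 3 counts correspond to at most 0.0782 CPM. Gm10053, named here after its values were seen, is a copy of Cycs whose transcript is 99.9% identical over 946 bases, and reads may have been divided between them. Its counts were 3.18% to 12.8% of those of Cycs, highest in Myh6-ctl replicate 1, and it fell in both models (log2 fold change -0.48, adjusted p = 0.0381 in EIIa-tg, and -2.19, adjusted p = 0.0311 in Myh6-tg hearts). Cycs has 9 such copies in GENCODE at 90% identity or more over at least 200 bases, Uqcrb 4, Uqcrh 2 and Uqcrq 1, and of these only Gm10053 is a row of the count table. Where reads from the others were counted is not given in the sources used here, so the values of these 4 genes are uncertain to that extent.

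Genes around complex III were given by lists. Of 12 genes for complex III assembly and haem insertion, 4 fell in EIIa-tg and 5 in Myh6-tg hearts and 0 rose, where 8.3% and 9.38% of all genes were called lower, and the median log2 fold changes were -0.43 and -0.65. Bcs1l, which inserts the Rieske protein, was at -0.68 on the log2 scale (adjusted p = 0.0397) in the EIIa model and at -1.60 (adjusted p = 0.0136) in the Myh6 model. Lyrm7, the chaperone of the Rieske protein, was at -1.11 (adjusted p = 0.0221) and -2.04 (adjusted p = 0.0109) in that order. Uqcc1, an assembly factor for cytochrome b, had -0.87 (adjusted p = 0.0208) and -1.70 (adjusted p = 0.00445). The measured changes of these 3 factors were thus larger than that of Uqcrfs1 in each model, though the differences between genes were not tested. Higd1a was called in EIIa-tg hearts (-0.60, adjusted p = 0.03), and in Myh6-tg hearts Hccs, which attaches haem to cytochromes c and c1, was called (-0.96, adjusted p = 0.0246), as was 1190007I07Rik (-1.88, adjusted p = 0.0143).

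Ubiquinone, the substrate of complex III, is made by the Pdss and Coq enzymes. Of 13 of their genes, 8 were called lower in EIIa-tg and 9 in Myh6-tg hearts, against the same 8.3% and 9.38%, with median log2 fold changes of -0.70 and -1.17. In Myh6-tg hearts Coq8a, a kinase-like regulator of the pathway, was at -2.27 on the log2 scale (adjusted p = 0.0452), Coq10a, which binds ubiquinone, at -2.25 (adjusted p = 0.00502) and Coq9 at -2.13 (adjusted p = 0.0244). In EIIa-tg hearts these were at -0.71 (adjusted p = 0.0373), -0.95 (adjusted p = 0.0312) and -1.04 (adjusted p = 0.0257). Pdss1 and Pdss2, which make the isoprenoid tail, had -1.19 (adjusted p = 0.0166) and -1.03 (adjusted p = 0.0186) in EIIa-tg and -1.14 (adjusted p = 0.0272) and -1.47 (adjusted p = 0.012) in Myh6-tg hearts. Coq2, Coq3 and Coq5 were also called in both models, and Coq4 in Myh6-tg hearts. Coq8b was the exception and rose, by 0.65 (adjusted p = 0.0467) and 0.82 (adjusted p = 0.0183), where 8.65% and 8.96% of all genes were called higher.

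Of 7 tested enzymes that hand electrons to ubiquinone outside complexes I and II, 2 fell in EIIa-tg and 4 in Myh6-tg hearts, against 8.3% and 9.38% of all genes. Etfa, Etfb and Etfdh, the flavoprotein route from fatty acid oxidation, were at -1.61 (adjusted p = 0.0128), -1.70 (adjusted p = 0.00682) and -1.60 (adjusted p = 0.00887) in Myh6-tg hearts, and -0.32 (adjusted p = 0.144), -0.32 (adjusted p = 0.118) and -0.57 (adjusted p = 0.0271) in EIIa-tg hearts. For Etfb the difference between the models passed the test (-1.38 ± 0.29 (SE), adjusted p = 0.0209). Prodh was called in EIIa-tg hearts (-1.13, adjusted p = 0.0329) and Dhodh in Myh6-tg hearts (-1.08, adjusted p = 0.0161).

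Of 13 genes for proteins that work with cytochrome c in cell death, 1 fell and 2 rose in EIIa-tg hearts, where 8.3% of all genes were called lower and 8.65% higher. In Myh6-tg hearts 0 fell and 1 rose, against 9.38% and 8.96%. These counts are near the shares over all genes, and the median log2 fold changes were -0.0042 and 0.28. Bcl2l1, which encodes the inhibitor Bcl-xL and its splice forms, rose in both (1.02, adjusted p = 0.0186, and 1.15, adjusted p = 0.022). Bax, which permeabilises the outer membrane, rose in EIIa-tg hearts (1.03, adjusted p = 0.0204) and had 0.56 (adjusted p = 0.333) in Myh6-tg hearts. Opa1, which shapes the cristae, fell in EIIa-tg hearts (-1.01, adjusted p = 0.0188) and had -1.22 (adjusted p = 0.05, just above the threshold) in Myh6-tg hearts.

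**Figure D4:**
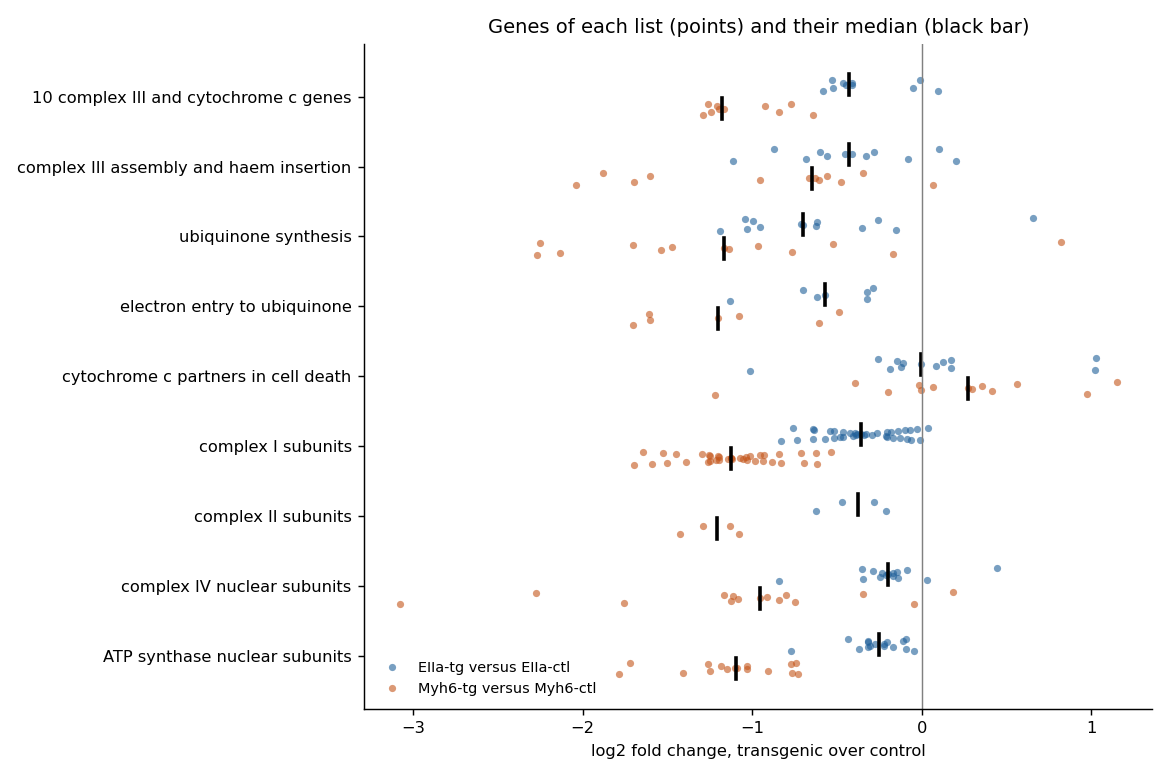
Log2 fold change (horizontal axis) of the tested genes of each list in EIIa-tg (blue) and Myh6-tg hearts (orange), with the median of the list as a black bar. The 10 complex III and cytochrome c genes have medians of -0.43 and -1.18, and the cytochrome c partners in cell death have medians of -0.0042 and 0.28.

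The other respiratory complexes served for comparison. In EIIa-tg hearts the median log2 fold change was -0.36 over 37 complex I subunits (9 called lower), -0.38 over 4 complex II subunits (0 called), -0.20 over 15 nuclear subunits of complex IV (1 called lower) and -0.25 over 16 nuclear subunits of ATP synthase (1 called lower), against 8.3% of all genes called lower. In Myh6-tg hearts the medians were -1.12 (25 called lower), -1.21 (4), -0.95 (7) and -1.10 (9), against 9.38%. The median of the complex III and cytochrome c genes, -0.43 and -1.18, was below these 4 in EIIa-tg hearts and between those of complexes I and II in Myh6-tg hearts, and no difference between complexes was tested.

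The level of the 10 genes varied in parallel over the hearts. Over the 12 hearts the correlation of log2 CPM was between 0.775 (Uqcrc2 with Uqcr10) and 0.998 (Uqcrc1 with Cyc1), with a median of 0.95 over 45 pairs. Cyc1 was the best partner of Uqcrc1, Uqcrc2, Uqcrfs1 and Cycs, while Uqcrh, Uqcrb and Uqcr10 each went best with another of these 3. Outside the list, the genes most like the mean profile were Ndufa8 (0.996), Cox4i1 (0.996), Cox5b (0.995), Atp5o (0.994) and Atp5g3 (0.993), subunits of complexes I and IV and of ATP synthase. The correlations are descriptive, since the hearts share their groups, ages and library properties.

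Marker transcripts of several cell types also differed between the groups. In the Myh6 model the summed cardiomyocyte markers were 28404 to 35379 CPM in Myh6-ctl and 8055 to 21935 CPM in Myh6-tg hearts. Of the markers, 1 of 8 fell in EIIa-tg and 4 of 8 in Myh6-tg hearts. Beside the marker counts here and below, 8.3% and 9.38% of all genes were called lower in these comparisons. The shares called higher were 8.65% and 8.96%. Over the 8 markers the median log2 fold change was -0.76 in EIIa-tg and -1.33 in Myh6-tg hearts, with 7 and 5 of them below 0. The lowest values were -1.34 and -2.60. Tnnt2 (0.09 and 0.44), Actn2 (-0.09 and 0.58) and Ttn (-0.17 and 0.03) were near or above 0 in both comparisons, unlike the list as a whole. These 3 were picked after their values were seen. EIIa-tg replicate 2 and Myh6-tg replicate 1 had the highest cardiomyocyte sums of their groups. Of the complex III and cytochrome c genes, 7 and 9 had their highest CPM of the group in these hearts. Uqcrh, Uqcrb and Uqcr10 were highest in EIIa-tg replicate 1 instead, where the sum was 20082 CPM, and Uqcrb in Myh6-tg replicate 2. Among controls, EIIa-ctl replicate 3 had the highest sum and the highest level of 7 genes. In Myh6-ctl hearts the sum was highest in replicate 1, but 9 genes were highest in replicate 2. The fibroblast sum was 1136 to 1486 CPM in EIIa-ctl, 1919 to 2821 CPM in EIIa-tg, 1523 to 1892 CPM in Myh6-ctl and 2119 to 4564 CPM in Myh6-tg hearts, with 2 and 3 of 6 markers called higher. Activated fibroblast markers were at 203 to 411 CPM in EIIa-ctl, 193 to 418 CPM in EIIa-tg, 209.6 to 336 CPM in Myh6-ctl and 1424 to 2827 CPM in Myh6-tg hearts, with 1 and 3 of 4 called higher. The leukocyte sum was 140.2 to 207 CPM, 268 to 364 CPM, 246 to 345 CPM and 310.4 to 603 CPM in the same order, with 5 and 0 of 5 markers called higher, and 3 and 0 of 5 endothelial markers and 0 and 1 of 4 smooth muscle and pericyte markers fell. Erythroid markers, of which 1 of 3 fell in each model, were at 1079 to 1828 CPM in EIIa-ctl, 151 to 926 CPM in EIIa-tg, 3693 to 5788 CPM in Myh6-ctl and 1336 to 2459 CPM in Myh6-tg hearts. Their part in the levels of the complex III genes was not tested.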

How the data were processed

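RNA of 12 mouse hearts was measured by RNA-seq on libraries made with the NEBNext Ultra kit. Per the paper, reads were mapped to GRCm38 with Hisat2, and the submitters' processing notes name HISAT2 2.0.4, StringTie 2.2.1 and DESeq2. The counting program and annotation release are not given in the sources used here. The authors deposited raw counts per gene, without normalization, and FPKM, which are scaled to transcript length and to the fragments mapped. One protocol text in the labels speaks of brain, while the tissue label is heart.

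The 10 genes and all lists were chosen with earlier results of these data known. The quasi-likelihood test of edgeR 4.0.16 (glmQLFit, glmQLFTest) was run after filterByExpr and TMM scaling in R 4.3.3, in the 6 hearts of a comparison or in all 12 for the difference. P-values were adjusted over all genes tested. Standard errors were the log2 fold change over the root of F, and intervals had 95% confidence. CPM in the text use TMM factors of all 12 hearts. Named genes were the 10 genes, mt-Cytb, Cyct and copies, called genes of the pathway lists, the 5 genes most alike and, as checks of the labels, Esr1 and Sqstm1. Acta1, Tnnt2, Actn2 and Ttn were named after their values were seen.

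Replicates are separate mice. In the Myh6 model, hearts given the same number in their titles deviated together from their group means (correlations of 0.285, 0.184 and 0.173 for numbers 1 to 3). The numbers were therefore taken as pairs and a block was fitted. The titles state no pairing, so these pairs rest on the same data that the block was fitted to. In every group only number 1 had Y-linked counts, so the block also holds that difference. Alternatives were DESeq2 1.42.0, RLE factors, library totals, other filters, all 12 hearts in one fit, removal of mt- genes, limma 3.58.1 on log2(FPKM + 1) or + 0.1 with an FPKM of at least 0.5 in 3 hearts or no filter, and leaving out each heart. Leaving out replicate 1 of every group and DESeq2 with the study's thresholds were added after seeing the data. Positions came from GENCODE M21, in which 22022 loci were found, and 3135 loci named NewGene by the authors (2.09% to 4.35% of counts) stayed in the fits. Promoters came from RefSeq (GRCm38.p6). Scripts were tested on simulated data. Figures were drawn with matplotlib 3.10.9.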

Additional observations from a re-analysis of the deposited data

Results flagged for a closer look

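Among the genes named above, the difference between the changes in Myh6-tg and EIIa-tg hearts passed edgeR's test for 2. It passed that test for 0 of the 10 complex III and cytochrome c genes. For Etfb, which encodes the beta subunit of the electron transfer flavoprotein, it was -1.38 on the log2 scale (standard error 0.29, edgeR adjusted p = 0.0209). For Esr1 it was -10.23 (standard error 0.71, adjusted p = 9.89e-05), which follows the high level in Myh6-ctl hearts given above.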

How the results depend on the processing

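In EIIa-tg hearts edgeR called 1 of the 10 genes. The count was 7 with DESeq2, 0 with library totals only, 0 with all 12 hearts in one fit, 0 with limma on FPKM under each pseudocount and filter, 0 by the study's thresholds with edgeR or DESeq2 and 0 without replicate 1 of every group. This last setting and DESeq2 with the study's thresholds were chosen after seeing the data. The count ranged from 0 to 7 when each heart was left out, 7 being the value without EIIa-tg replicate 2. A replicate block gave 0, with an adjusted p of 0.101 for Uqcrfs1 by edgeR. EIIa hearts of the same number share the presence or absence of Y-linked counts but did not deviate together (correlations of 0.06, -0.07 and -0.05), nor did all pairs of controls (0.12, 0.06 and -0.03). In Myh6-tg hearts 6 were called, 0 by the study's thresholds with edgeR, 6 by these thresholds with DESeq2, and 0 to 8 with a heart left out. The difference between the models gave 0 calls, 1 with DESeq2 (Uqcrb) and 0 to 1 with a heart left out. The comparison of controls gave 0 in each setting run. For most of these alternatives the share of all genes called is not given, so the counts describe only how the calls moved.

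Library totals and FPKM moved the median of all genes, from 0.02 to 0.21 in EIIa-tg and from 0.03 to 0.43 in Myh6-tg hearts with library totals. Relative to that median, the 10 genes stood at -0.46 and -1.21, against -0.45 and -1.21 with TMM. With library totals, Uqcrh and Uqcr10 were at 0.14 and 0.18 in EIIa-tg hearts, and with limma at 0.14 and 0.18 for a pseudocount of 1, with and without the filter, and 0.14 and 0.18 for 0.1. With a heart left out, Uqcrh ranged from -0.14 to 0.026 and Uqcr10 from -0.14 to 0.073. Without replicate 1 of every group, Uqcrh was at -0.21, Uqcr10 at -0.21 and Uqcrb at -0.055 in EIIa-tg hearts. Between the controls, Uqcrb was at -0.0054 with the replicate block and Uqcr10 at 0.0060 without replicate 1 of every group, and with a heart left out Uqcrb ranged from -0.22 to 0.17, Uqcr10 from -0.40 to 0.087 and mt-Cytb from -0.060 to 0.19. All of these had been within 0.10 of 0. Of 843 values of the 10 genes and mt-Cytb under the alternatives, 749 kept direction and side of the threshold, 34 lost and 39 gained a call and 21 changed sign. The causes were not tested.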
